A study of Mus musculus with 12 samples.

Results

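Mitochondrially encoded RNAs were taken as the rows of the deposited table whose name after the Ensembl identifier begins with mt-. The rule found 25 rows of 3717. They are both ribosomal RNAs (mt-Rnr1, the 12S rRNA, and mt-Rnr2, the 16S rRNA), 15 of 22 annotated tRNAs and 8 of 13 annotated protein-coding genes. The other 12 genes of the mitochondrial chromosome (7 tRNAs and 5 protein-coding genes) were not analysed here. The rule used names only, and no measured value.

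Libraries were made from the livers of male wild-type C57BL/6 mice, in a study of liver miRNAs in nonalcoholic steatohepatitis, a fatty liver disease with inflammation. Mice ate chow or a diet called HFCF, which the labels do not spell out, for 1 month (sampled at 3 months of age) or 3 months (6 months of age), so time on diet and age moved together. Each of the 4 groups held 3 libraries, given in the design text as biological replicates. The labels name no transgene or deletion in any group. Table totals ran from 2539388 to 5255906 counts per library, and miRNA loci took 51.7% to 61.8% of them.

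In mammals, mitochondrial DNA is transcribed from both strands into long precursors. In these the tRNAs stand between rRNAs and messenger RNAs, and nucleases that cut at the tRNA ends release the separate molecules. The rRNAs form the mitochondrial ribosome, which with the tRNAs translates the messenger RNAs into core subunits of the respiratory chain and of ATP synthase. Hepatocytes are rich in mitochondria, which there carry out fatty acid oxidation and part of the urea cycle.

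The genes of 5 tRNAs are shown because the results turn on them. They include mt-Ta and mt-Tl1, which had the smallest p-values between the diets averaged over both times, and mt-Tm. The libraries of mt-Tm did not overlap between the diets at either time after scaling, though they did without it. The others are mt-Ts2, with the most counts per length of the 15 tRNAs, and mt-Tn, with the fewest. The sequences are the GENCODE release M21 transcripts on the mm10 mitochondrial chromosome, 5′ to 3′ on the gene's own strand, with the anticodon in capitals, and without the CCA end that is added after transcription.
mt-Ta: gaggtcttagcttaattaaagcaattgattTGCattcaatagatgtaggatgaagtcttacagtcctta
mt-Tl1: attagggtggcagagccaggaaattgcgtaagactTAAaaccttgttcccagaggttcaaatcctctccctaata
mt-Tm: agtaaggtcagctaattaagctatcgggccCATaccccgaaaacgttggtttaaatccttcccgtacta
mt-Ts2: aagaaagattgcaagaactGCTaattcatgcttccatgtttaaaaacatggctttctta
mt-Tn: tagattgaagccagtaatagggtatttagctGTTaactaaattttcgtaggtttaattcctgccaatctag
mt-Ta, the alanine tRNA with anticodon TGC, lies on the minus strand at chrM:5018-5086. mt-Tl1, the leucine tRNA with anticodon TAA, lies on the plus strand at chrM:2676-2750, directly between mt-Rnr2 and mt-Nd1. In humans its gene is a known site of mutations that cause mitochondrial disease. mt-Tm, the methionine tRNA (CAT), is at chrM:3845-3913 on the plus strand. mt-Ts2, the serine tRNA with anticodon GCT, is at chrM:11613-11671 on the plus strand and is the shortest of the 15 at 59 bases; mammalian tRNAs of this kind lack the D arm. mt-Tn, the asparagine tRNA (GTT), is at chrM:5089-5159 on the minus strand, beside mt-Ta.

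Mitochondrial RNA was a small part of every library and was mostly rRNA. The 25 rows together took 1.34% to 3.27% of table counts. Within them the rRNAs made up 73.7% to 82.8%, the tRNAs 9.95% to 15.9% and the protein-coding rows 5.42% to 13.02%. The 16S row held 2.16 to 2.93 times the counts of the 12S row. Of the tRNA counts, 17.96% to 28.6% were at the 6 tRNAs annotated on the minus strand.

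Levels were compared between genes per length, as the authors' FPKM (fragments per kilobase of gene, scaled to library size). It is available for all 25 rows. Counts at rRNA and messenger RNA rows may be those of short pieces, and how far FPKM follows the amount of whole molecules was not tested. Among the tRNAs mt-Ts2 was highest, with a median FPKM of 7788 and a range of 2935 to 40033 over the 12 libraries. mt-Tl1 (median 4739) and mt-Tv, the valine tRNA (4954), came next, and mt-Tl1 was above mt-Tv in 7 of 12 libraries, so their order was not settled. mt-Tq, the glutamine tRNA, had a median FPKM of 2641, and mt-Ti, the isoleucine tRNA, 2349, with mt-Tq higher in 8 of 12 libraries. mt-Ta had a median of 1991 and was below mt-Ti in 9 of 12. The order then ran through mt-Tm, mt-Tp, mt-Tc, mt-Tf, mt-Tt and mt-Tl2 to mt-Te at 97.7, mt-Tw, the tryptophan tRNA, at 35.7 and mt-Tn at 5.81.

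Neighbours on the chromosome differed widely in this measure. mt-Ta, mt-Tn and mt-Tc (the cysteine tRNA) follow each other on the minus strand, yet the mean FPKM of mt-Ta was 183 times, and that of mt-Tc 68.9 times, that of mt-Tn. The mean FPKM of mt-Ts2 was 40.3 times that of mt-Tl2, a second leucine tRNA whose gene shares its first base with the last base of mt-Ts2, and was the higher in 12 of 12 libraries. mt-Tn had 48 counts over all libraries, from 0 to 23 per library, and was the only member that did not pass the filter on low counts. In HFCF replicate 2 at 3 months it had 0 of 4283890 counts, which allows a level of up to 0.700 CPM (counts scaled to library size).

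Among the protein-coding rows mt-Nd3, a subunit of respiratory complex I, was highest in FPKM (median 925, range 622 to 1378) and above the next row in 12 of 12 libraries. It was followed by mt-Nd1 (median 248) and mt-Nd2 (152), also of complex I. mt-Cytb of complex III had a median of 149.5 and mt-Co1, the catalytic core of complex IV, 116. mt-Nd5 (79.2), mt-Nd6 (56.4) and mt-Nd4 (34.2), all of complex I, were the lowest. mt-Nd2 was above mt-Cytb, and mt-Cytb above mt-Co1, in only 9 of 12 libraries each. For the rRNAs the median FPKM was 6172 for mt-Rnr2 and 4104 for mt-Rnr1, with mt-Rnr2 higher in all 12 libraries. The mean FPKM of mt-Rnr2 was 25.7 times that of mt-Nd1, and that of mt-Tl1, which lies between them, was 22.2 times that of mt-Nd1.

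**Figure D1:**
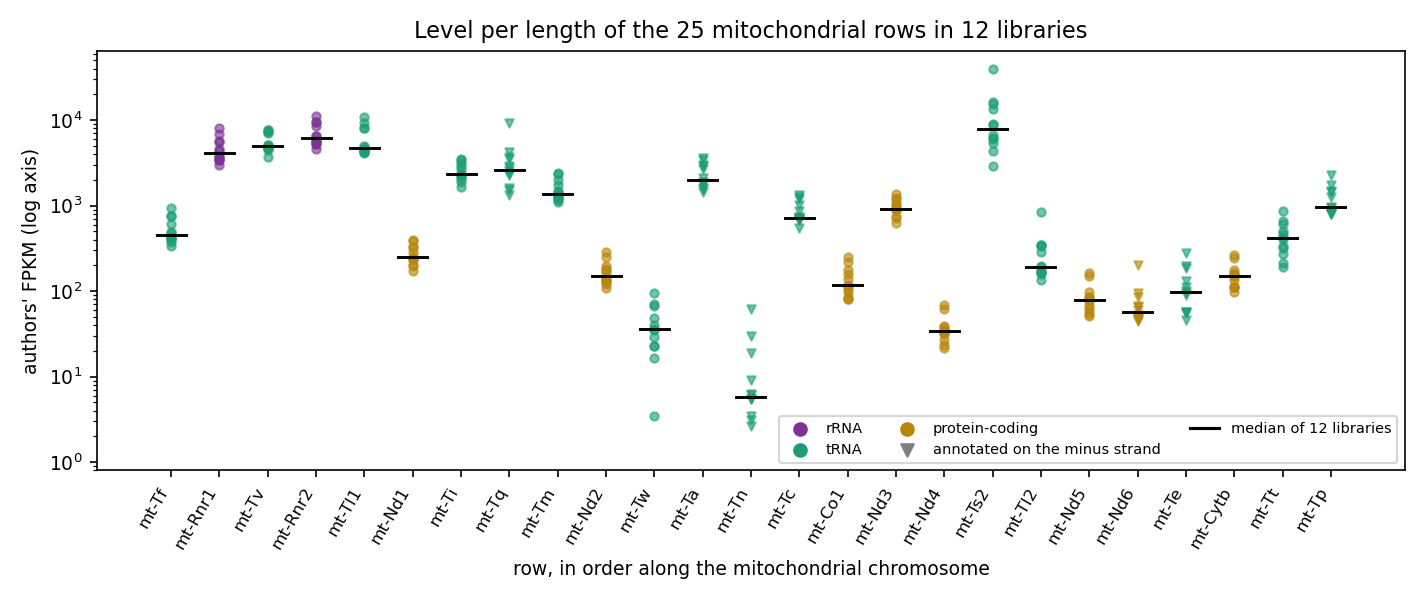
Authors' FPKM on a log axis for each of the 25 mitochondrial rows, placed in their order along the chromosome, with 1 point per library and a line at the median of 12 libraries. Triangles mark rows annotated on the minus strand. mt-Ts2 reaches 40033 in 1 library, and the medians of mt-Tw and mt-Tn are 35.7 and 5.81; the library in which mt-Tn is at 0 cannot be drawn on this axis.

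Not every count at these rows is certain as to its gene. Nuclear copies with at least 90% identity over 30 or more bases are annotated for 7 of the 8 protein-coding rows, mt-Nd1 being the exception. Such copies are also annotated for mt-Tl1, mt-Tn and mt-Tt, and none was found for the rRNAs. Only annotated transcripts were searched, not the whole genome, so copies outside them would not have been found. The copies of mt-Nd4 and mt-Nd3 are 100% and 99.7% identical over the part they share, and how the authors treated reads that match several places is not stated in the labels or file headers. The copy of mt-Co1 that has a row of its own in the table, Gm13340, held 0 to 11 counts per library, against 451 to 2046 at mt-Co1. Some neighbouring rows share bases at their ends, as mt-Nd1 and mt-Ti or mt-Nd5 and mt-Nd6 do, while others, such as mt-Rnr2 and mt-Tl1, meet with none shared. Whether counting used the strand is also not given, so reads at shared bases, and reads from the strand opposite to a gene, cannot be assigned.

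Taken as shares of the table, all 3 classes of mitochondrial RNA overlapped between the diets at both times. In chow mice at 1 month the 25 rows took 1.74%, 3.27% and 1.79% of counts (2.27% ± 0.870, SD, n = 3), and in HFCF mice 1.34%, 1.46% and 2.66% (1.82% ± 0.730). At 3 months they took 1.77%, 1.42% and 1.59% in chow mice (1.59% ± 0.178) and 2.51%, 1.402% and 2.33% in HFCF mice (2.08% ± 0.595). Chow replicate 2 and HFCF replicate 3 were the high libraries at 1 month, and at 3 months HFCF replicate 2 was the lowest of all 6. Counting error was far smaller than this spread: Wilson 95% intervals were at most 0.0192 percentage points either side of a library's share. Such intervals cover counting error only.

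The log2 ratio of the mean share in HFCF to that in chow mice was -0.32 at 1 month and 0.39 at 3 months, against a pooled SD of log2 shares of 0.53 and 0.34. For the rRNAs it was -0.26 and 0.38, from mean shares of 1.48% against 1.77% and 1.69% against 1.30%. For the tRNAs it was -0.53 and 0.57, from 0.217% against 0.313% and 0.259% against 0.175%. For the protein-coding rows it was -0.57 and 0.22, from 0.127% against 0.189% and 0.134% against 0.115%. The 1-month ratios rested on single libraries: without chow replicate 2 they were 0.04 over all rows, 0.10 for the rRNAs and 0.05 for the tRNAs, and without HFCF replicate 3 they were -0.70, -0.64 and -0.97. The protein-coding ratio at 1 month ran from -0.85 to -0.41 with 1 library left out. At 3 months the ratio over all rows was 0.23 without HFCF replicate 1 and 0.61 without HFCF replicate 2, with 0.21 and 0.60 for the rRNAs and 0.36 and 0.82 for the tRNAs. For the protein-coding rows it ran from 0.08, without chow replicate 2, to 0.32. No p-value is given for these sums. In bulk tissue, fewer cells of a type and less RNA per cell cannot be told apart.

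**Figure D2:**
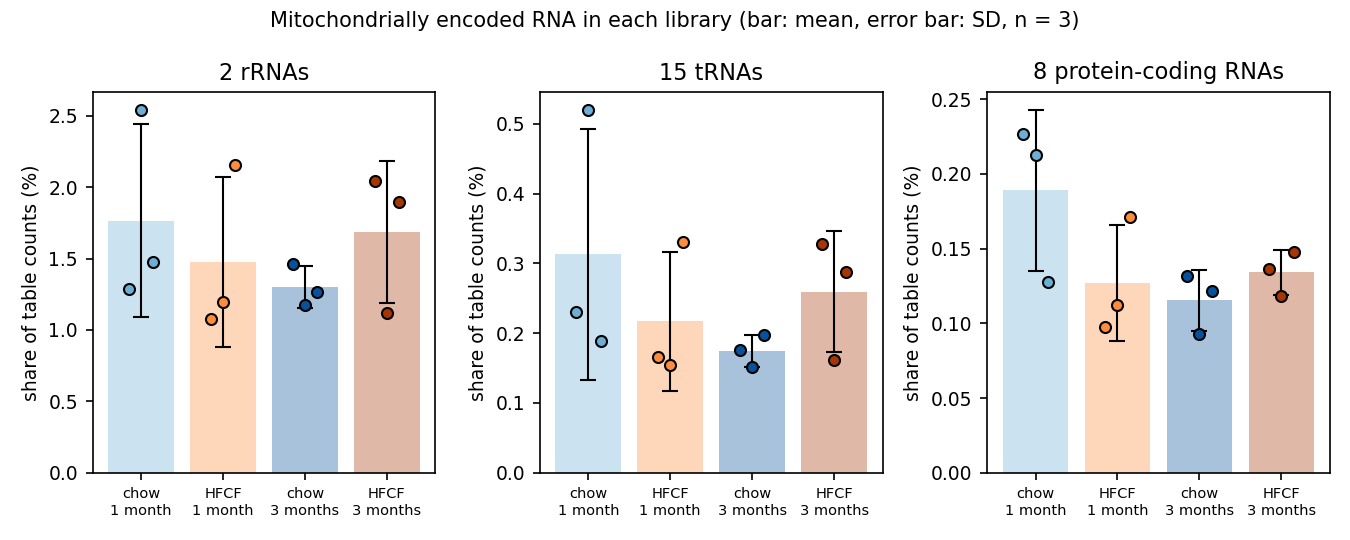
Share of table counts taken by mitochondrial rRNAs, tRNAs and protein-coding RNAs, with 1 point per library (replicates 1 to 3 from left to right), bars at the group mean and error bars of 1 SD (n = 3). The axes differ between panels, and in every panel the points of HFCF and chow mice of 1 time overlap.

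A pair of libraries stood apart in the protein-coding class. Chow replicates 1 and 2 at 1 month had protein-coding shares of 0.227% and 0.212%, against 0.0927% to 0.171% in the other 10 libraries. Hepatocyte markers, of which 17 had rows, were present in every library. The same libraries were highest in nuclear protein-coding counts, at 2.63% and 2.62% against 1.69% to 2.23%, and in summed hepatocyte markers, at 3327 and 3145 CPM against 1266 to 2142. Set against 100 nuclear protein-coding counts, the mitochondrial protein-coding rows had 8.62, 8.11 and 6.40 counts in chow mice and 5.49, 6.63 and 7.87 in HFCF mice at 1 month, and 6.71, 5.48 and 6.53 against 6.69, 6.11 and 6.63 at 3 months. On that scale, too, the groups overlapped at each time. Markers of other cell types were scarce, and the sums of some did not overlap between the diets at 1 of the times. At 1 month mesenchymal and matrix markers, of which 4 had rows, summed to 9.75, 13.6 and 11.3 CPM in chow and 18.3, 17.3 and 16.7 in HFCF mice. Every HFCF library was above. At 3 months they overlapped, at 9.53 to 11.96 against 11.2 to 17.3. Only 1 of the 4, Dcn, was tested, and at 1 month it did not pass (log2 fold change 0.99, adjusted p = 0.121 by edgeR). Leukocyte and macrophage markers (6 rows) overlapped at 1 month, at 5.55 to 10.3 against 4.33 to 7.83. At 3 months they summed to 5.91, 5.86 and 4.21 CPM in chow and 6.42, 11.2 and 14.03 in HFCF mice. Every HFCF library was again above, but the genes did not move together. Of the 3 tested, 2 were higher in HFCF mice at 3 months and log2 fold changes ran from -3.48 to 1.60. None passed (smallest adjusted p = 0.140 by edgeR). The 1 red cell gene in the table had 66 counts over all libraries and did not pass the filter. It was at 1.33 to 1.91 CPM in chow and 0.652 to 0.951 in HFCF mice at 1 month, without overlap. The value of 0.652, in HFCF replicate 1, is only 3 counts. The gene overlapped at 3 months. Hepatocyte, endothelial (3.04 to 6.69 CPM) and bile duct markers (0.984 to 3.50) overlapped at both times. These sums are unscaled CPM, on which 15.5% of all tested rows did not overlap at 1 month and 20.2% at 3 months. The part of the marker sums in the results on single rows was not tested.

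**Figure D3:**
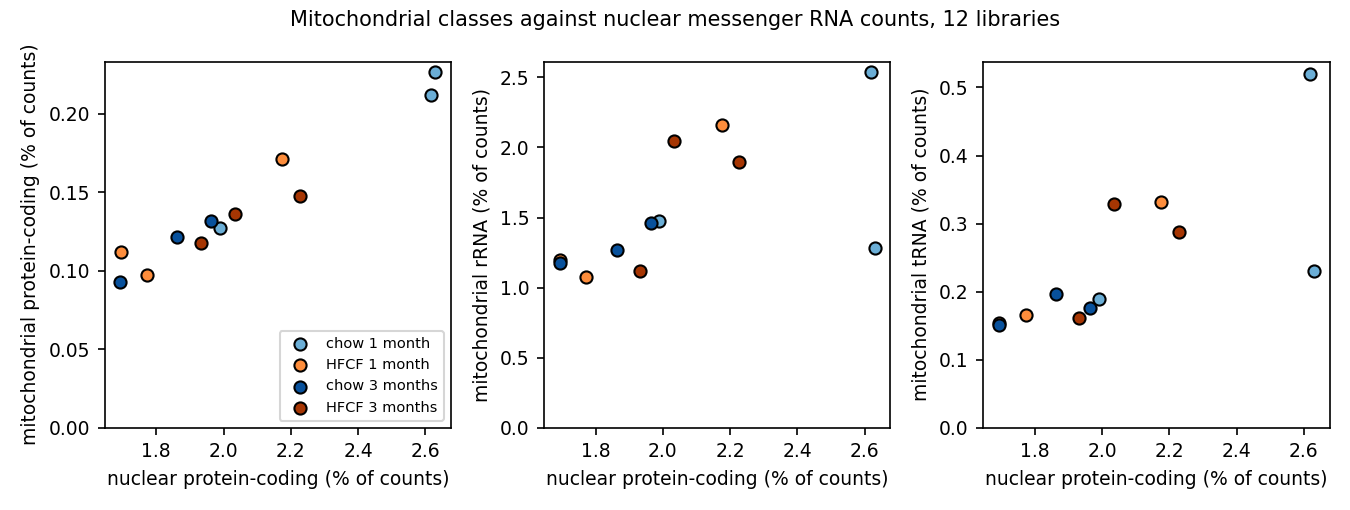
Share of counts at mitochondrial protein-coding, rRNA and tRNA rows (vertical axes) against the share at nuclear protein-coding rows that share no reads with a smaller gene (horizontal axis), 1 point per library, coloured by group. Chow replicates 1 and 2 at 1 month lie at 2.63% and 2.62% on the horizontal axis, to the right of the others, which end at 2.23%.

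Single rows were then compared on TMM-scaled CPM, in which library size is corrected by a factor that assumes most rows unchanged, with edgeR's quasi-likelihood test over the 2511 rows of the table that passed the filter, 24 of them mitochondrial. The scaling factors ran from 0.788 to 1.44, and chow replicate 2 at 1 month had the highest. At 1 month no mitochondrial row passed an adjusted p of 0.05 between HFCF and chow mice, where 0.438% of all rows did. At an unadjusted p under 0.05 there were 4 (mt-Ta, mt-Nd5, mt-Tq and mt-Nd4), where 10.1% of all rows reached it. Members with an unadjusted p under 0.05 that the rule for named genes did not choose, mt-Nd4 here and mt-Nd4 and mt-Nd6 for time, are named after their values were seen. DESeq2 and limma-voom also called 0 members. The median log2 fold change was 0.05 over the 24 members and -0.03 over all rows. With 1 library left out the median over the members ranged from -0.17, when HFCF replicate 3 of that time was dropped, to 0.11, when chow replicate 2 was.

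The class medians had opposite signs at that time, a difference that was not tested. The median log2 fold change was -0.45 over the 8 protein-coding rows and 7 of them were lower in HFCF mice; with the other scalings tried 7 or all 8 were. Without chow replicate 1 it was -0.14 and 5 were lower. It was 0.11 over the 14 tRNAs, of which 10 were higher, but only 3 were when libraries were scaled by their totals or on miRNA loci. Without HFCF replicate 3 at 1 month 7 of the 14 were higher, and without chow replicate 3 the tRNA median was 0.03 and without chow replicate 2 0.24. Those scalings moved the median of all rows to -0.36 and -0.35.

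mt-Nd5 had CPM of 257, 189.9 and 155 in chow and 135, 126 and 152 in HFCF mice at 1 month. The HFCF values were all under the chow values, the nearest pair being 155 and 152. The log2 fold change was -0.55 ± 0.24 (SE; adjusted p = 0.411 by edgeR). mt-Nd4, at 82.2, 59.1 and 49.1 CPM against 37.6, 46.6 and 45.0, and mt-Cytb, at 242, 213 and 188 against 147, 164 and 173, were the other rows with every HFCF library below every chow library. mt-Co1 (336, 239 and 184 against 154, 158 and 231) and mt-Nd1 (324, 262 and 224 against 221, 246 and 235) overlapped. In 7 of the 8 protein-coding rows chow replicate 1 at 1 month was the highest library of all 12; mt-Nd3, highest in HFCF replicate 2 at 1 month, was the exception.

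mt-Tm and mt-Ta were the rows with every HFCF library above every chow library at 1 month. mt-Tm had 85.1, 97.4 and 84.8 CPM in chow and 102, 107 and 138 in HFCF mice. mt-Ta had 178, 91.1 and 111 CPM in chow and 229, 184 and 213 in HFCF mice, with HFCF replicate 2 just above chow replicate 1. Its log2 fold change was 0.72 ± 0.25 (adjusted p = 0.294 by edgeR), and it passed, at 1.05 and an adjusted p of 0.0322, only when chow replicate 1 was left out. In all, 5 of 24 members did not overlap at 1 month, where 11.5% of all rows did not (5.93% with HFCF above and 5.62% with HFCF below). All 5 separations depended on the TMM scaling: as unscaled CPM 0 of 24 members, and 15.5% of all rows, did not overlap. Unscaled, mt-Ta was at 207, 131 and 110.4 in chow and 199, 145 and 251 in HFCF mice, and mt-Tm at 99.0, 139.8 and 84.4 against 88.5, 84.3 and 162.

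mt-Tq had 213, 461 and 162 CPM in chow and 109.5, 144 and 222 in HFCF mice. The groups overlapped, and chow replicate 2 was far above the rest. Its log2 fold change was -0.81 ± 0.34 (adjusted p = 0.415 by edgeR). The rRNAs differed by less than their standard error: mt-Rnr1 had 3046, 5381 and 4441 CPM against 3922, 4147 and 5649 (log2 fold change 0.09 ± 0.24, adjusted p = 0.932), and mt-Rnr2 7991, 12315 and 10356 against 8474, 11029.8 and 12697 (0.07 ± 0.23, adjusted p = 0.947). Both rRNAs changed sign under some settings.

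At 3 months no mitochondrial row passed between the diets, where 2.51% of all rows did, and DESeq2 and limma-voom called 0 as well. Only mt-Tl1 had an unadjusted p under 0.05, which 14.5% of all rows reached. The median log2 fold change was 0.28 over the 24 members and 0.03 over all rows, and 20 of the 24 were positive. The median over the members was 0.16 without HFCF replicate 1 at 3 months, 0.17 without chow replicate 2 and 0.36 without HFCF replicate 2. The share of positive members depended on the scale: 23 were positive with library totals, 19 with DESeq2 size factors, 13 with scaling on miRNA loci and 12 with scaling on the sum of the mitochondrial rows. By class, 12 of 14 tRNAs were positive, with a median of 0.40, and 6 of 8 protein-coding rows, with a median of 0.10. Without HFCF replicate 1 at 3 months the tRNA median was 0.20, and without chow replicate 2 the protein-coding median was -0.02. On miRNA loci 10 of the tRNAs and 2 of the protein-coding rows were positive.

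mt-Tl1 had 326, 376 and 328 CPM in chow and 575, 402 and 591 in HFCF mice at 3 months. Every HFCF library was above every chow library, with HFCF replicate 2 the nearest to chow. The log2 fold change was 0.61 ± 0.24 (adjusted p = 0.231 by edgeR). mt-Ta, at 129, 118 and 131 against 220.3, 128 and 179, overlapped through HFCF replicate 2, with 0.48 ± 0.26 (adjusted p = 0.392). mt-Tm, at 77.1, 94.5 and 107 against 155, 108 and 116, did not overlap, by a margin of 107 to 108, and its log2 fold change was 0.44 ± 0.24 (adjusted p = 0.408). mt-Ti (158, 136 and 170.0 against 221, 182 and 212), mt-Nd1 (245, 192 and 246 against 298, 268 and 300.4) and mt-Co1 (180.2, 148 and 157 against 203, 193 and 236) were the other rows with all HFCF libraries above all chow libraries. These 5 of 24 compare with 22.2% of all rows whose libraries did not overlap (11.2% with HFCF above and 11% with HFCF below). As unscaled CPM only mt-Tl1 of the 24 stayed apart, at 321, 319 and 312 in chow and 614, 340.3 and 614 in HFCF mice, where 20.2% of all rows did not overlap.

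The rRNAs at 3 months overlapped between the diets. mt-Rnr2 had 10621, 9933 and 9432 CPM in chow and 14153, 9884 and 13046 in HFCF mice (log2 fold change 0.31 ± 0.23, adjusted p = 0.572 by edgeR), and mt-Rnr1 4236, 3851 and 3884 against 5017, 3373 and 5213 (0.18 ± 0.24, adjusted p = 0.783). HFCF replicates 1 and 3 were above all chow libraries for both, while HFCF replicate 2 was below 2 of the chow libraries for mt-Rnr2 and below all 3 for mt-Rnr1.

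Averaged over both times, 1 of 24 mitochondrial rows passed between the diets, where 4.42% of all rows did. It was mt-Ta, which was higher in HFCF mice, by 0.60 ± 0.18 on the log2 scale (adjusted p = 0.0473 by edgeR), and all 6 HFCF libraries were above the chow mean of their own time, 4 of 6 as unscaled CPM. Of all rows, 2.51% passed as higher. DESeq2 (adjusted p = 0.0197) and limma-voom (0.0436) made the same call. It lay close to the threshold: over 21 alternatives its adjusted p ran from 0.00581 to 0.415 and 7 of them passed. It did not pass with library totals (0.258), with scaling on miRNA loci (0.381) or on the sum of the mitochondrial rows (0.415), without the filter (0.0709), or without any 1 of 10 libraries. Leaving out chow replicate 1 at 1 month or HFCF replicate 2 at 3 months kept it. Its log2 fold change was between 0.35 and 0.76 throughout.

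mt-Tl1 was next. At 1 month it had 290.0, 482 and 366 CPM in chow and 432, 442 and 696 in HFCF mice, where chow replicate 2 lay above 2 of the HFCF libraries. Its averaged log2 fold change was 0.54 ± 0.17 (adjusted p = 0.0695 by edgeR), with 6 of 6 HFCF libraries above the chow mean of their time (4 of 6 unscaled), and it passed only without chow replicate 2 at 1 month (0.0221) or HFCF replicate 2 at 3 months (0.0386). mt-Tm had 0.41 ± 0.17 (adjusted p = 0.199), also with 6 of 6 libraries above (4 of 6 unscaled). These were the 3 members with an unadjusted p under 0.05, which 16% of all rows reached. mt-Rnr1 (0.14 ± 0.17, adjusted p = 0.768) and mt-Rnr2 (0.19 ± 0.16, adjusted p = 0.637) did not pass.

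**Figure D4:**
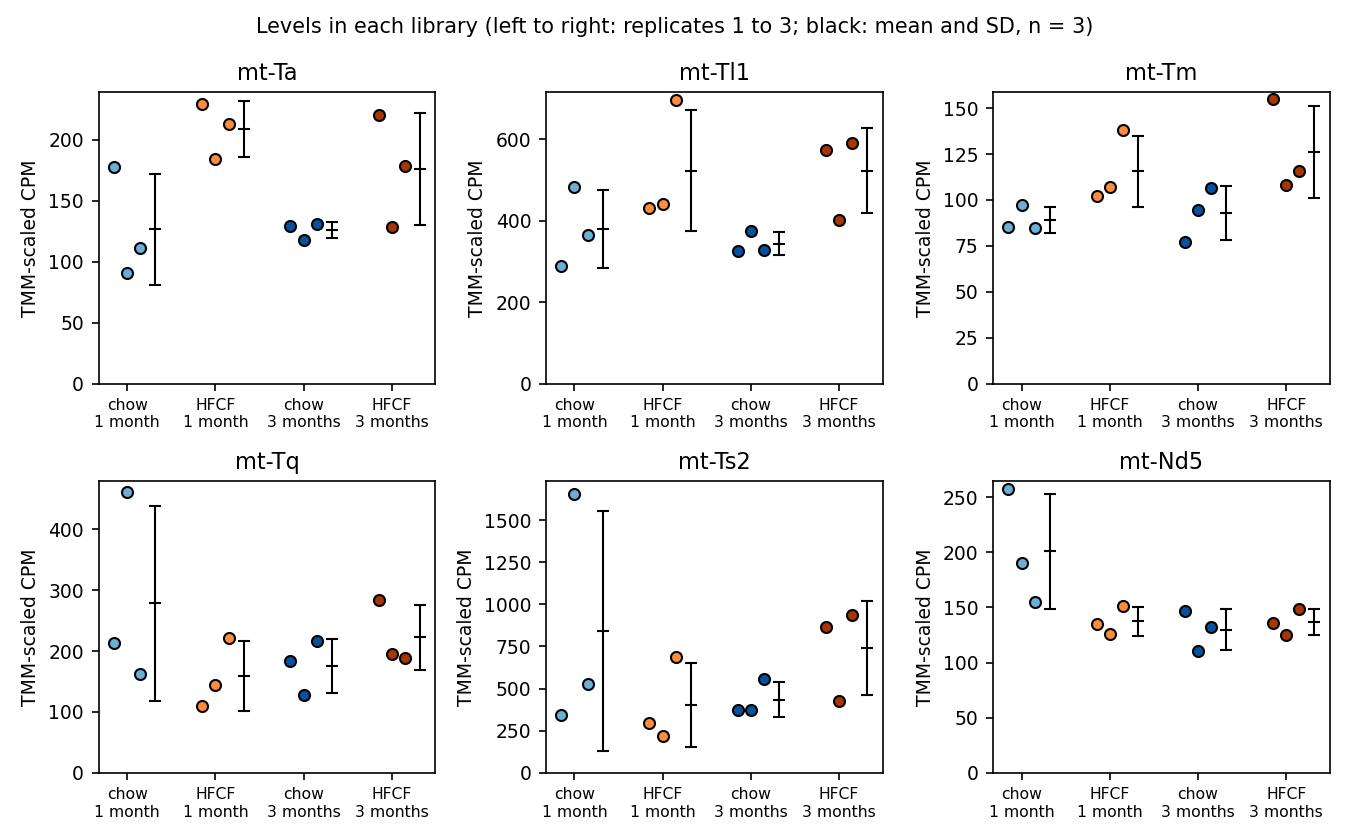
TMM-scaled CPM of mt-Ta, mt-Tl1, mt-Tm, mt-Tq, mt-Ts2 and mt-Nd5 in each library, by group, with the group mean and SD in black (n = 3). mt-Ta in HFCF mice lies between 128 and 229, with chow mice between 91.1 and 178, and 1 chow library at 1 month reaches 1654 for mt-Ts2 and 461 for mt-Tq.

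The diet effect itself was not shown to differ between the times for any member: 0 of 24 passed, where 0.0796% of all rows did, and DESeq2 and limma-voom called 0. An unadjusted p under 0.05 was reached by 3 members and by 7.93% of all rows. They were mt-Co1 (difference of log2 fold changes, 3 months minus 1 month, 0.86 ± 0.35, adjusted p = 0.483 by edgeR), mt-Tq (1.15 ± 0.48, adjusted p = 0.577) and mt-Nd4 (0.78 ± 0.36, adjusted p = 0.617). mt-Rnr1 had 0.09 ± 0.33 (adjusted p = 0.973) and mt-Rnr2 0.24 ± 0.32 (adjusted p = 0.859).

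**Figure D5:**
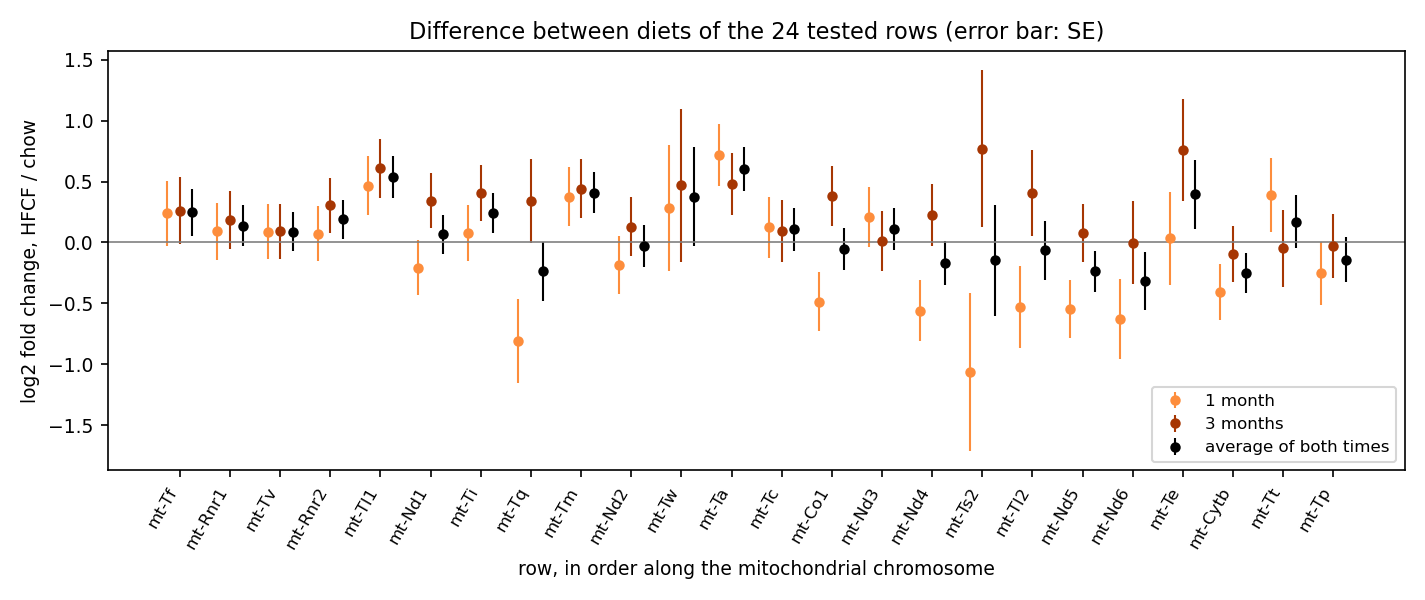
Log2 fold change of HFCF over chow with its SE for the 24 tested rows in chromosome order, at 1 month, at 3 months and averaged over both. At 1 month 7 of the 8 protein-coding rows lie below 0, and mt-Ta, mt-Tl1 and mt-Tm lie above 0 in all 3 comparisons.

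Between 1 and 3 months no member passed in chow mice, where 0.319% of all rows did, or in HFCF mice, where 2.71% did, by edgeR, DESeq2 or limma-voom. In chow mice 5 members (mt-Nd5, mt-Co1, mt-Tl2, mt-Nd4 and mt-Nd6) had an unadjusted p under 0.05, which 10.6% of all rows reached, and 23 of 24 log2 fold changes were negative, with a median of -0.29 against -0.04 over all rows; 18 to 24 were negative under the other scalings. mt-Nd5 was at 257, 189.9 and 155 CPM at 1 month and 147, 110.0 and 132 at 3 months, with no overlap (-0.63 ± 0.24, adjusted p = 0.293 by edgeR). mt-Co1 went from 336, 239 and 184 to 180.2, 148 and 157, also with no overlap (-0.65 ± 0.25, adjusted p = 0.300 by edgeR). mt-Nd4 (nearest pair 49.1 and 47.3) and mt-Cytb (188 and 184) did not overlap either. The share of all rows without overlap between the times was not computed, so these separations cannot be set against it.

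mt-Tl2 had 20.7, 42.3 and 11.8 CPM at 1 month and 12.4, 14.1 and 14.4 at 3 months in chow mice, overlapping, with chow replicate 2 at 1 month the highest (-0.86 ± 0.35, adjusted p = 0.336 by edgeR). mt-Rnr1 had -0.10 ± 0.24 (adjusted p = 0.917) and mt-Rnr2 -0.03 ± 0.23 (adjusted p = 0.976). These comparisons include chow replicates 1 and 2 at 1 month, which had the most nuclear protein-coding counts, and their part was not tested. The median over the members was -0.27 without chow replicate 1 at 1 month and -0.11 without chow replicate 2. It was -0.45 without chow replicate 3 at 1 month and -0.40 without chow replicate 1 at 3 months.

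In HFCF mice the median over the members was -0.01, against 0.03 over all rows, and ran from -0.14 without HFCF replicate 1 at 1 month to 0.17 without HFCF replicate 3. mt-Tt, the threonine tRNA, was the 1 member with an unadjusted p under 0.05, where 12.8% of all rows had one; it had 26.3, 51.9 and 37.5 CPM at 1 month and 25.3, 15.2 and 27.6 at 3 months. The highest library at 3 months lay above the lowest at 1 month, and the log2 fold change was -0.76 ± 0.31 (adjusted p = 0.241 by edgeR). mt-Tq (0.49 ± 0.34, adjusted p = 0.645), mt-Nd1 (0.31 ± 0.23, adjusted p = 0.663), mt-Rnr1 (-0.01 ± 0.24, adjusted p = 0.995) and mt-Rnr2 (0.20 ± 0.23, adjusted p = 0.793) did not pass. The comparisons of diets and of times share groups, so their values are not independent.

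The members differed in how far libraries of 1 group spread. The median residual SD of log2 CPM was 0.31 over the 24 members, 0.41 over all 2511 rows and 0.35 over 224 miRNA rows. These sets were not matched for level, so the medians do not set mitochondrial rows apart. Among the members the residual SD was lowest for mt-Nd1 (0.18), mt-Cytb (0.18) and mt-Ti (0.18). The highest were mt-Tw (1.00), which had 1 to 23 counts per library, and mt-Ts2 (0.81), which had 913 to 7864.

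mt-Ts2 had 344, 1654 and 524 CPM in chow and 297, 220.3 and 686 in HFCF mice at 1 month, and 373, 375 and 555 and 866, 424 and 934 at 3 months. Chow replicate 2 at 1 month was 7.51 times the lowest library. In that library mt-Ts2 made up 45.7% of tRNA counts, against 11.3% to 33.7% elsewhere, and of the 14 tested tRNAs it was the highest library for 5. mt-Tl2, beside mt-Ts2, was highest there too.

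The groups of the remaining tRNAs overlapped at both times. mt-Tv ranged from 303 to 491 CPM over the libraries, mt-Tp, the proline tRNA, from 56.0 to 106, mt-Tc from 43.3 to 75.9, mt-Tf, the phenylalanine tRNA, from 25.97 to 55.0 and mt-Te, the glutamate tRNA, from 3.74 to 13.5. Of the remaining protein-coding rows, mt-Nd2 had means of 193 ± 60.1 and 169.6 ± 16.5 CPM (SD, n = 3) in chow and HFCF mice at 1 month, and 153 ± 20.8 and 167 ± 17.3 at 3 months. mt-Nd3 had 325 ± 30.1 and 376 ± 113, then 325 ± 9.73 and 327 ± 97.1. mt-Nd6, the only protein-coding row on the minus strand, was at 91.4 CPM in chow replicate 1 at 1 month and at 24.3 to 37.5 in all others.

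The mitochondrial genes of the nucleus were measured only in part. Of the lists of nuclear-encoded respiratory chain and ATP synthase subunits, 39 rows were in the table and 22 passed the filter (among them Ndufs1, Sdha, Uqcrc1, Cox4i1 and Atp5b). Depth was low, from 700 counts over all libraries for the 6 rows of complex III to 2506 for the 9 of ATP synthase. Changes in these rows could thus be missed. None passed between the diets, with a smallest adjusted p of 0.524 at 1 month and 0.515 at 3 months by edgeR, and none had an unadjusted p under 0.05 at either time. Their median log2 fold change was -0.09 at 1 month, with 8 of 22 positive, and 0.06 at 3 months, with 13 positive. Of the genes of mitochondrial transcription and RNA processing, Grsf1, Hsd17b10 (a subunit of the nuclease that cuts the 5′ ends of mitochondrial tRNAs), Lrpprc (which stabilises mitochondrial messenger RNA) and Ppargc1a were tested, and 0 of 4 passed at either time (smallest adjusted p = 0.579 and 0.366). Lars2, which charges mitochondrial leucine tRNA and so acts on mt-Tl1 and mt-Tl2, was the 1 synthetase tested and did not pass (log2 fold change 0.21 ± 0.24, adjusted p = 0.832 at 1 month and -0.08 ± 0.24, adjusted p = 0.909 at 3 months). The 4 synthetase rows together held 15776 counts over all libraries, against 791 for the 7 rows of transcription and RNA processing. How far counts at the Lars2 row come from its messenger RNA was not tested.

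Among 16 tested hepatocyte markers 0 passed at 1 month and 1 at 3 months, where Cps1, the mitochondrial enzyme of the urea cycle that is encoded in the nucleus, was lower in HFCF mice (log2 fold change -1.43 ± 0.25, adjusted p = 0.000634 by edgeR). It was the 1 gene of the lists that passed at that time, where 2.51% of all rows did. Averaged over both times, where mt-Ta passed, 2 of the 16 did, against 4.42% of all rows. Cps1 was lower (-0.97 ± 0.18, adjusted p = 0.000821 by edgeR) and Fabp1, the fatty acid binding protein of the liver, was higher (0.90 ± 0.22, adjusted p = 0.00963). Cps1 passed in 21 of 21 alternatives and Fabp1 in 17. An unadjusted p under 0.05 was reached in the averaged comparison by 7 of the 16 and by 16% of all rows. The part of these changes in the result on mt-Ta was not tested.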

How the data were processed

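Values for 12 libraries came from 1 deposited table, which holds raw read counts and FPKM per the file headers, with the length of each gene. Reads were placed on mm10, by the submitters' processing notes; the sources used here name no aligner or counter and no strand setting. The labels' protocols give a kit for small RNA, but the design text gives one for stranded total RNA from which ribosomal RNA is removed. These sources do not settle which was used. In the counts, miRNA loci took 51.7% to 61.8% of each library, and so the larger part. Nuclear protein-coding rows that share no reads with a smaller gene took 1.69% to 2.63%. Size selection or rRNA removal would change the level of an rRNA or messenger RNA row and could change that of a tRNA row. With size selection, counts at rRNA and messenger RNA rows would be those of short pieces. How far the FPKM of different rows follows the amount of whole rRNA, tRNA or messenger RNA in liver was not tested.

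Counts were filtered with edgeR's filterByExpr by group, scaled by TMM and tested with edgeR 4.0.16 (quasi-likelihood, robust) over all 12 libraries, 1 mean per group, with Benjamini-Hochberg adjustment over the 2511 rows tested. Standard errors follow from the log2 fold change and the F value. The authors' FPKM served only for levels between genes. The edgeR fit was also run on simulated data, the outcome of which is not given here. Groups came from the labels. DESeq2 1.42.0, limma-voom (limma 3.58.1), other scalings, no filter, a replicate block and fits without each library were alternatives. Coordinates and lengths of all 25 rows equalled GENCODE M21. Log2 fold changes are given in each comparison for rows that passed, or for the 3 smallest p-values where fewer than 3 passed, and for both rRNAs. The members and gene lists were chosen with earlier results of these data known. Table totals of 2539388 to 5255906 counts set the precision of each level.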

Additional observations from a re-analysis of the deposited data

Results flagged for a closer look

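The mean protein-coding share of table counts differed in opposite directions with diet at the 2 times, though single libraries of the diets overlapped at both. Every HFCF library was below the chow mean at 1 month and above it at 3 months, and the difference of the log2 ratios of HFCF to chow, 3 months minus 1 month, was 0.79. It ran from 0.63 to 1.06 when 1 library was left out. The ratio at 3 months was 0.22, against a pooled SD of log2 shares of 0.22, and it was 0.08 without chow replicate 2. Without chow replicate 1 at 1 month 2 of 3 HFCF libraries were below the chow mean at that time, and without chow replicate 2 at 3 months 2 of 3 were above it at that time. This difference was not tested. The chow mean at 1 month includes replicates 1 and 2, the libraries with the most nuclear protein-coding counts (2.63% and 2.62%, against 1.69% to 2.23% elsewhere); their part in it was not tested.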

How the results depend on the processing

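The 1 member called between the diets averaged over both times became 0 with library totals, with scaling on miRNA loci, with scaling on the sum of the mitochondrial rows and with no filter, and the cause was not tested. Leaving out 1 library gave 0 to 2 calls there, 0 to 1 for diet at 1 month and 0 to 0 in the other 4 comparisons; other alternatives left every count as it was. The replicate numbers are not said to pair the mice. Correlations of same-numbered libraries ran from -0.13 to 0.16, with 1 of 12 over 0.1. Differently numbered libraries were not compared, so these values cannot settle whether mice were paired. With the replicate block 1 member was called in the averaged comparison (adjusted p = 0.0379 by edgeR) and 0 in the others. Of the 24 members, 10 to 16 per comparison changed sign under at least 1 alternative; of those whose log2 fold changes are given, both rRNAs did, never with a call. For mt-Rnr1 the log2 fold change at 1 month was -0.24 with library totals and -0.23 on miRNA loci, and -0.11 to 0.31 when 1 library was left out. mt-Rnr2 there had -0.27, -0.26 and -0.086 to 0.25. On miRNA loci mt-Rnr1 had -0.028 at 3 months and -0.13 averaged, and mt-Rnr2 -0.084 averaged and -0.094 for time in HFCF mice. On the sum of the mitochondrial rows mt-Rnr1 had -0.11 at 3 months, -0.012 averaged, -0.19 for the difference between times and 0.027 for time in chow mice, and mt-Rnr2 -0.026 for the difference and 0.087 for time in chow mice. With library totals mt-Rnr1 had 0.033 for time in HFCF mice. With 1 library left out, mt-Rnr1 ran from -0.13 to 0.28 for the difference, from -0.34 to 0.085 for time in chow mice and from -0.17 to 0.16 in HFCF mice, and mt-Rnr2 from -0.22 to 0.12 for time in chow mice. As unscaled CPM, tried after seeing the data, 0 members did not overlap between the diets at 1 month and 1 at 3 months, against 5 and 5. The tRNA share between times in chow mice (log2 ratio -0.84) was -0.26 without chow replicate 2 at 1 month. The planned fit of mitochondrial rows alone was not run, since its p-values would cover only the members; the fit of all rows on their sum took its place and was chosen after seeing the data. Depth limits mt-Tn, mt-Tw and the nuclear rows of the respiratory chain, and 3 mice per group limit all rows.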
